A study of Mus musculus with 10 samples.

Results

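The EGF family of the mouse colon is described here by 9 genes, namely the ligand genes Areg, Ereg, Hbegf, Tgfa, Btc and Egf and the receptor genes Egfr, Erbb2 and Erbb3. They were chosen by symbol: transcripts that RefSeq assigns to these genes were taken from the deposited table and their FPKM (fragments scaled to transcript length and library size) were summed per gene. All 9 were found among 23473 genes, and all 9 were among the 14061 genes that reached at least 1 FPKM in at least 2 libraries and were tested. Egf passed that filter only through the Control libraries. A single transcript stood for 8 of the 9 genes, and Egfr had 2.

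Ligands of the family are made as membrane-anchored precursors, cut from the cell surface by ADAM proteases, and bind EGFR on the same cell or on its neighbours. EGFR then pairs with another receptor of the family, often ERBB2, which has no known ligand of its own, or ERBB3, which binds neuregulins and has a weak kinase. The paired receptors switch on the RAS-MAPK and PI3K pathways. In the intestine this signalling is known for driving the growth of crypt cells and the repair of injured epithelium, and it is active in many colon tumours.

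The C57BL/6 mice formed 5 groups with 2 libraries each, 10 in all. ASA, CUR, ASA+CUR and Model mice were injected at 6 weeks of age with azoxymethane (AOM, 10 mg/kg), a colon carcinogen, and were given dextran sulfate sodium (DSS), which injures the colon lining, at 1.2% in their water for 7 days. Control mice had saline and no DSS. All groups ate the AIN-93M diet, which held 0.02% aspirin for ASA, 2% curcumin for CUR, 0.01% aspirin with 1% curcumin for ASA+CUR, and neither agent for Model and Control. The labels call the AOM/DSS material tumour and the Control material colon, whereas the protocol describes colon that was left and frozen once palpable tumours were out. The tissue name therefore follows AOM/DSS treatment, and both cannot be told apart. Nothing states that both libraries of a group are different animals. The p-values thus reflect how far such libraries differ, for technical reasons or others.

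Summed FPKM lay between 515959 and 720895 per library and read depth is unknown. Of 10 markers of colon epithelium, all were measured, with sums of 6597 to 14943 FPKM in the AOM/DSS libraries and 10337 to 11965 FPKM in the Control libraries. Krt5, a keratin of squamous epithelium, was above 1 FPKM in 3 libraries, ASA replicate 0 (94.5 FPKM), ASA+CUR replicate 0 (212 FPKM) and Model replicate 0 (10.3 FPKM). Other squamous markers were not confined to these 3 libraries, since Krt14, the usual partner keratin of Krt5, lay between 9.97 and 198 FPKM in all 8 AOM/DSS libraries and at 0.164 and 0.589 FPKM in Control. CUR replicate 0 held 4663 FPKM of absorptive colonocyte markers, against 341 to 1148 FPKM in the other AOM/DSS libraries. Results are also given without the 3 libraries with Krt5, or without 1 library, where that ends a call. Leaving out those 3 does not remove squamous markers from the comparison. In whole tissue, fewer cells of a type and less RNA per cell cannot be told apart.

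The first question was what AOM and DSS did to the family. With the 4 AOM/DSS groups as 1 contrast, the mean of their group means, Areg, Ereg, Tgfa and Btc rose and Egf fell relative to Control, while Hbegf and the receptors did not pass the test. These are 5 of 9 members at an adjusted p under 0.05 (limma, adjusted over all genes tested), where 31.5% of all genes passed. Of the 9, 4 rose, where 14.6% of all genes did, and 1 fell, where 16.9% did. The 1 that fell, Egf, passed the filter only through the Control libraries, so its direction was largely set by the filter. Its fall, here and in the counts below, is thus no test against the share of all genes. In Model alone, Tgfa and Btc rose and Egf fell, 3 of 9 members, where 16.2% of all genes passed (6.84% higher and 9.34% lower). Log2 changes are those of FPKM + 1. Comparisons with Control share the same 2 Control libraries.

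Areg encodes amphiregulin, a low-affinity EGFR ligand made by epithelium and by immune cells during repair. It had 39.8 and 51.3 FPKM in ASA, 101 and 17.3 FPKM in CUR, 41.3 and 48.8 FPKM in ASA+CUR, 45.9 and 30.1 FPKM in Model, and 14.9 and 11.6 FPKM in Control. All 8 AOM/DSS libraries lay above both Control libraries, with CUR holding both the highest and the lowest of the 8. Over these libraries Areg averaged 46.9 ± 24.4 FPKM, against 13.3 ± 2.33 FPKM in Control (SD, n = 8 and 2), which is 3.53 times the Control mean. The log2 change in the AOM/DSS groups was 1.61 ± 0.52 (SE, adjusted p = 0.0490), and in Model alone it was 1.43 ± 0.66 (adjusted p = 0.183). The call was lost when any 1 library other than those of CUR was left out (adjusted p between 0.062 and 0.261, log2 change between 1.44 and 1.77), and without the 3 libraries with Krt5 (adjusted p = 0.177), where the log2 change was again 1.61. It was also lost without a filter on low values (adjusted p = 0.0731), without a variance trend (0.0527) and with the highest transcript in place of the sum for each gene (0.0521).

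Ereg encodes epiregulin, a ligand of EGFR and ERBB4. It had 40.7 and 6.87 FPKM in ASA, 37.8 and 7.41 FPKM in CUR, 29.2 and 53.6 FPKM in ASA+CUR, 18.0 and 5.46 FPKM in Model, and 2.28 and 1.93 FPKM in Control. Within ASA, CUR and Model 1 library was far above the other, both ASA+CUR libraries were high, and no AOM/DSS library reached down to the Control libraries. Ereg had the widest range of the 9 genes, its highest library holding 27.8 times the FPKM of its lowest. The log2 change was 2.66 ± 0.74 in the AOM/DSS groups (adjusted p = 0.0287), which was the largest among the members, and 1.84 ± 0.94 in Model (adjusted p = 0.226). It did not pass without ASA+CUR replicate 1 (log2 change 2.55, adjusted p = 0.0532), Control replicate 0 (2.74, 0.15), Control replicate 1 (2.58, 0.172) or the 3 libraries with Krt5 (2.27, 0.0673), so the change was of similar size where the call was lost.

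Hbegf encodes heparin-binding EGF-like growth factor, a ligand that binds heparan sulfate on cell surfaces. It had 22.2 and 12.4 FPKM in ASA, 40.9 and 10.2 FPKM in CUR, 21.5 and 22.0 FPKM in ASA+CUR, 16.4 and 9.63 FPKM in Model, and 7.28 and 8.52 FPKM in Control. As with Areg, CUR replicate 0 was the highest library, and all 8 AOM/DSS values lay above both Control values. The log2 change of 1.06 ± 0.44 in the AOM/DSS groups did not pass (adjusted p = 0.103), nor did that of 0.62 ± 0.56 in Model (adjusted p = 0.5). In the AOM/DSS groups it passed without CUR replicate 0 (log2 change 0.83, adjusted p = 0.0428) and without CUR replicate 1 (1.30, adjusted p = 0.00925). It also passed with each library scaled to the same sum (1.35, adjusted p = 0.0296).

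Tgfa encodes transforming growth factor alpha, a high-affinity EGFR ligand of the gut epithelium. It had 17.5 and 24.0 FPKM in ASA, 17.1 and 22.5 FPKM in CUR, 22.7 and 26.6 FPKM in ASA+CUR, 19.6 and 18.4 FPKM in Model, and 9.02 and 10.1 FPKM in Control. No AOM/DSS library came near the Control libraries, and the 8 lay closer together than those of Areg, Ereg or Hbegf. The log2 change was 1.05 ± 0.16 in the AOM/DSS groups (adjusted p = 0.00227) and 0.93 ± 0.20 in Model (adjusted p = 0.0205). The call in the AOM/DSS groups held under each alternative that was run, with adjusted p between 0.00199 and 0.0399.

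Btc encodes betacellulin, which activates EGFR and ERBB4. It had 8.26 and 11.6 FPKM in ASA, 13.4 and 8.18 FPKM in CUR, 12.5 and 15.6 FPKM in ASA+CUR, 10.7 and 8.85 FPKM in Model, and 3.88 and 4.10 FPKM in Control. Every AOM/DSS library was above both Control libraries, and ASA+CUR was the highest group. Btc rose by a log2 change of 1.25 ± 0.20 in the AOM/DSS groups (adjusted p = 0.00313) and of 1.10 ± 0.26 in Model (adjusted p = 0.0260). Its call in the AOM/DSS groups also held under each alternative, with adjusted p between 0.000785 and 0.0436.

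Egf, which encodes the founding ligand of the family, was the only one of the 6 ligand genes that fell. It had 0.172 and 0.213 FPKM in ASA, 0.211 and 0.418 FPKM in CUR, 0.289 and 0.233 FPKM in ASA+CUR, 0.549 and 0.385 FPKM in Model, and 1.56 and 3.0 FPKM in Control. All 8 AOM/DSS libraries lay below both Control libraries, and Egf was the lowest of the 9 genes in every library except Control replicate 1, where Ereg was lower. The log2 change was -1.30 ± 0.19 in the AOM/DSS groups (adjusted p = 0.00202) and -1.13 ± 0.24 in Model (adjusted p = 0.0197). On the log2(FPKM + 1) scale the change of so low a gene is understated, since its mean FPKM in the AOM/DSS libraries was 0.135 times that in Control. Egf passed the filter only through the Control libraries, so its direction was largely set by the filter. Without any filter on low values the adjusted p was 0.00154 in the AOM/DSS groups and 0.0134 in Model.

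In all, 5 ligand genes had all 8 AOM/DSS libraries above both Control libraries, where 20.1% of all genes did, and Egf had all 8 below, where 20.3% did. For Egf that order was largely set by the filter, so it is no test against that share. In Model 1 member passed without Control replicate 0, where 4.43% of all genes did, and 1 without Model replicate 0 (11.6% of all genes). No member passed without Control replicate 1 (3.93%), without Model replicate 1 (7.67%) or without the 3 libraries with Krt5 (6.15%).

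**Figure D1:**
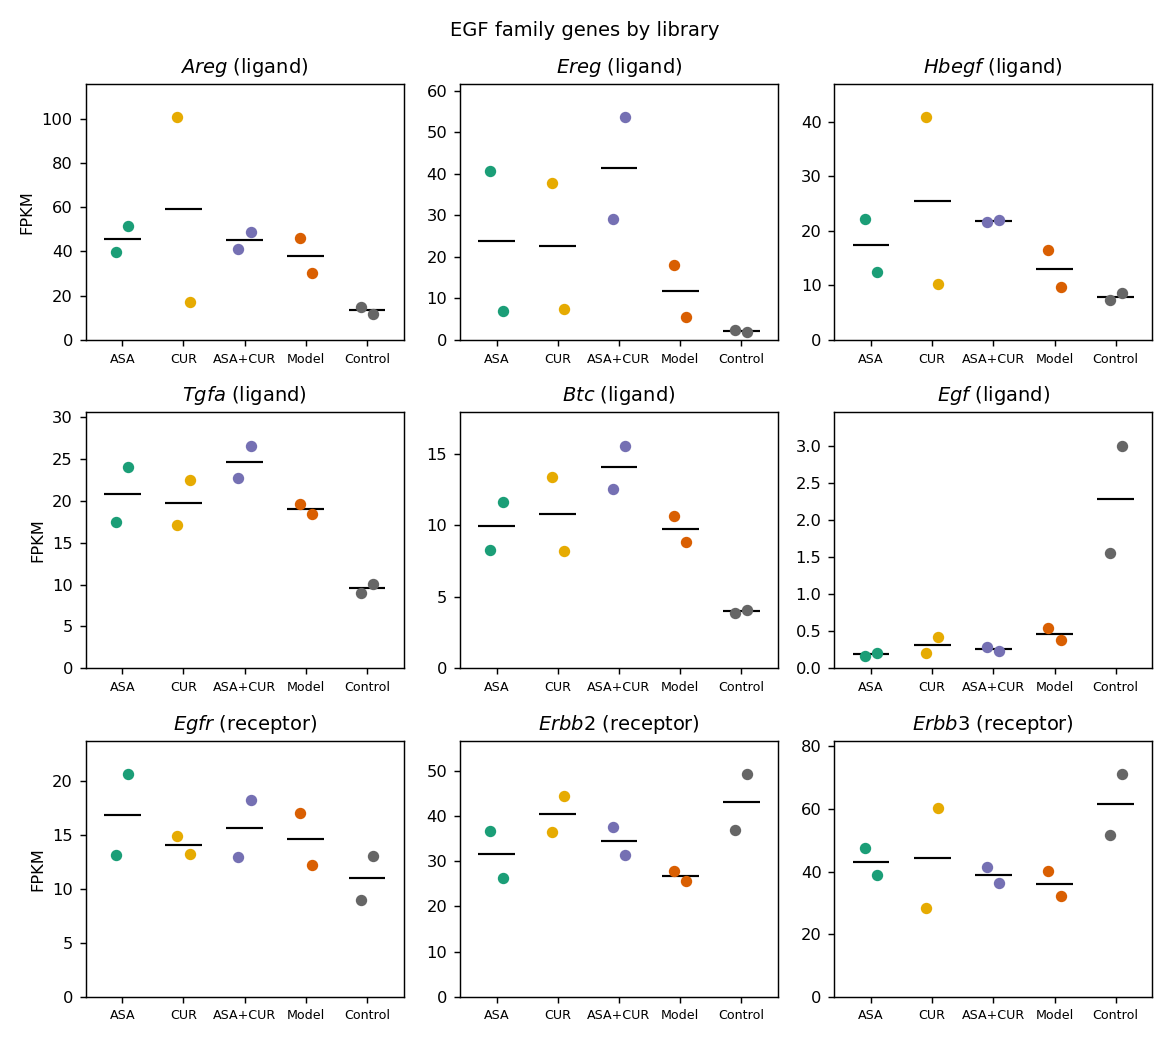
FPKM of each of the 9 genes (vertical axes, linear, from 0) in the 2 libraries of each group, with points for libraries, replicate 0 on the left, and a bar for the group mean. The AOM/DSS libraries lie above both Control libraries for the first 5 ligands and below both for Egf, and the libraries of CUR are far apart for Areg, Ereg and Hbegf.

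The promoters of the ligand genes that passed the test are printed where RefSeq supplies them, to show what letters lie at the start of genes that rose (Areg, Tgfa, Btc) and of the one that fell (Egf). Promoters were found for 6 members, and not for Ereg, Hbegf and Erbb3. Each stretch runs from 250 bases before to 50 bases after the start site (RefSeq, GRCm38.p6). Capitals mark matches, on either strand, to any of 5 motifs. The cAMP response element (CRE) was searched as TGACGTCA. The AP-1 site was searched as TGANTCA. The TATA box was searched as TATAAA. The GC box was searched as GGGCGG. The TCF/LEF site was searched as ATCAAAG.
Areg (chr5:91139349-91139648, plus strand): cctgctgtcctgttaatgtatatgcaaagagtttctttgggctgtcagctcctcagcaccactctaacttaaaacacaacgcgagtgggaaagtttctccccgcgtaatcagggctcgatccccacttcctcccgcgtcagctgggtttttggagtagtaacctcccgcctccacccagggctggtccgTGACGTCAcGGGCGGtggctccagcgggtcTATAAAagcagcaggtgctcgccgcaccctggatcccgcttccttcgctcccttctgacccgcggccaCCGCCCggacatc
Tgfa (chr6:86194972-86195271, plus strand): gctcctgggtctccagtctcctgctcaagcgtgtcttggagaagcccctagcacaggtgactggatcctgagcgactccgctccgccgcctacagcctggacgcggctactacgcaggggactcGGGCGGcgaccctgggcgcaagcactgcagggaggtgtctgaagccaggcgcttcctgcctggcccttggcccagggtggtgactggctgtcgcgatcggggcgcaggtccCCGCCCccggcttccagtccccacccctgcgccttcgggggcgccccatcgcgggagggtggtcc
Btc (chr5:91402945-91403244, minus strand): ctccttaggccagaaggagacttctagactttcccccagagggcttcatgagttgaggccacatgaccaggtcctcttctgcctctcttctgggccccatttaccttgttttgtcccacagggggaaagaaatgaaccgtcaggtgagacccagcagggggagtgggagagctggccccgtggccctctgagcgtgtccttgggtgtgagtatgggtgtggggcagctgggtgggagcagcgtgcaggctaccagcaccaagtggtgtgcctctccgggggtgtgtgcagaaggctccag
Egf (chr3:129755273-129755572, minus strand): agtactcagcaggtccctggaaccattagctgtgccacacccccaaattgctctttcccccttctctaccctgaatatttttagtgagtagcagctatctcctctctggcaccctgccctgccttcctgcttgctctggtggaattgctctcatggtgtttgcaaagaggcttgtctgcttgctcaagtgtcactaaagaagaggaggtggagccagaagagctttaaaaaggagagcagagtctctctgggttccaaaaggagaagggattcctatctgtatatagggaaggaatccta
The Areg promoter held a CRE that begins 61 bases before the start site, followed by a GC box at 52 bases and a TATA box at 31 bases before it, and a further GC box on the minus strand at 38 bases into the gene. No matches overlapped. A CRE of these letters was present in 1.79% of the 32851 promoters in the RefSeq table, a TATA box in 13.6% and a GC box in 35.7%. The Tgfa stretch had 2 GC boxes, at 126 and 15 bases before the start site used for it, and none of the other motifs. That site lies 184 bases inside Tgfa as the gene is listed, so both GC boxes fall within the listed gene. The printed stretches of Btc and Egf matched none of the 5 motifs. A second Egf promoter, not printed, lies 30236 bases from the start of Egf as listed and matched none either. AP-1 sites, in 7.81% of all promoters, and TCF/LEF sites, in 3.73%, were in none of the 4 stretches. A match is a description of the letters and does not show that a factor binds there.

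Egfr, Erbb2 and Erbb3 encode the receptors. Egfr had 13.1 and 20.6 FPKM in ASA, 14.9 and 13.2 FPKM in CUR, 13.0 and 18.2 FPKM in ASA+CUR, 17.0 and 12.2 FPKM in Model, and 8.94 and 13.0 FPKM in Control. The Control range ran into that of ASA+CUR and of Model. Egfr had a log2 difference of 0.44 ± 0.23 in the AOM/DSS groups (adjusted p = 0.171) and of 0.39 ± 0.29 in Model (adjusted p = 0.403), and the 95% interval for the AOM/DSS groups ran from -0.08 to 0.97.

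Erbb2, the ligandless partner receptor, had 36.8 and 26.4 FPKM in ASA, 36.5 and 44.4 FPKM in CUR, 37.6 and 31.4 FPKM in ASA+CUR, 27.9 and 25.6 FPKM in Model, and 36.8 and 49.3 FPKM in Control. Model was the lowest group, and its libraries did not overlap with Control. Those of ASA missed overlap by little, at 36.79 FPKM in ASA replicate 0 and 36.84 FPKM in Control replicate 0. The libraries of CUR and ASA+CUR overlapped with Control. How many of all genes were apart between 2 groups was not counted. The log2 difference was -0.65 ± 0.22 in Model (adjusted p = 0.0786, unadjusted p = 0.0166 from limma) and -0.37 ± 0.17 in the AOM/DSS groups (adjusted p = 0.134).

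Erbb3, the neuregulin receptor, had 47.6 and 38.9 FPKM in ASA, 28.3 and 60.3 FPKM in CUR, 41.4 and 36.2 FPKM in ASA+CUR, 40.1 and 32.1 FPKM in Model, and 51.8 and 71.2 FPKM in Control. All AOM/DSS libraries except CUR replicate 1 were below both Control libraries. The log2 difference was -0.74 ± 0.33 in Model (adjusted p = 0.169) and -0.60 ± 0.26 in the AOM/DSS groups (adjusted p = 0.115), and it passed without CUR replicate 1 (-0.73, adjusted p = 0.0143). Erbb3 made up 35.6% to 51.1% of the summed receptor FPKM in the AOM/DSS libraries and 53.1% and 53.3% in the Control libraries, while Egfr made up 11.2% to 24.0% in the AOM/DSS libraries and 9.16% and 9.76% in Control.

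**Figure D2:**
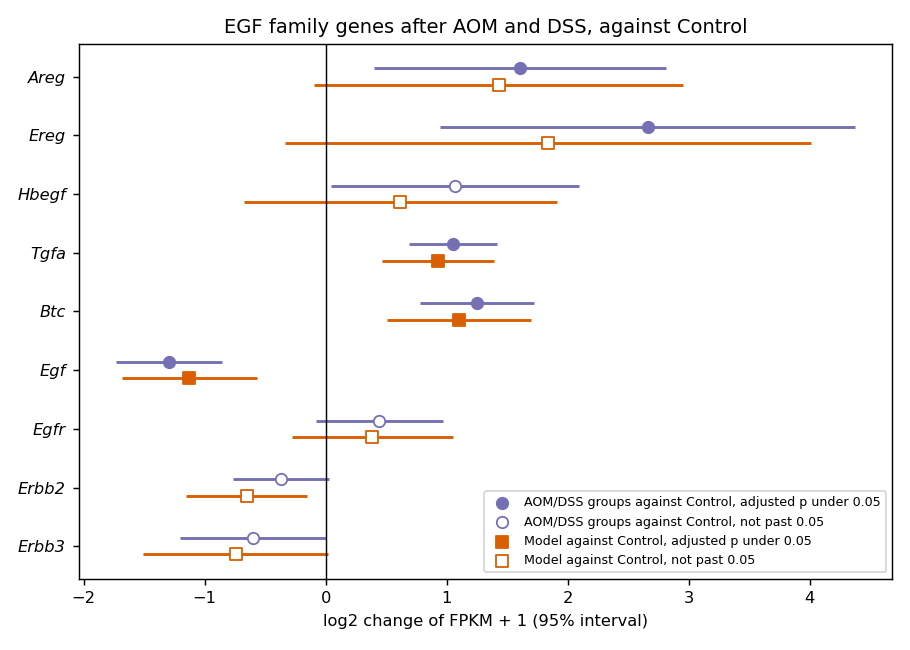
Log2 change of FPKM + 1 (horizontal axis) with its 95% interval from limma for the 9 genes, for the 4 AOM/DSS groups together (circles) and for Model (squares), each against Control; filled marks have an adjusted p under 0.05. Tgfa, Btc and Egf are filled in both comparisons, Areg and Ereg in the AOM/DSS groups alone, and the 3 receptors in neither.

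The 2 Egfr transcripts were listed separately. NM_207655 codes for 1210 residues, the full receptor with its kinase, and NM_007912 for 655 residues, a shorter form that shares 15 coding exons with it and lacks the kinase. The shorter form held 20.0% and 33.4% of Egfr FPKM in ASA, 17.7% and 27.1% in CUR, 19.5% and 19.0% in ASA+CUR, 23.9% and 29.5% in Model, and 30.4% and 38.0% in Control. The Control values overlapped with those of ASA alone. How many other genes had transcript shares apart between groups was not counted, so whether this is unusual cannot be told. These shares depend on how the authors' model divided fragments between forms that share most of the shorter one. With the higher of the 2 transcripts in place of the sum, Egfr passed in neither comparison.

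FPKM takes length into account, so levels can be set beside each other. The 6 ligands summed to 129 and 106 FPKM in ASA, 210.0 and 66.1 FPKM in CUR, 128 and 167 FPKM in ASA+CUR, 111 and 72.9 FPKM in Model, and 38.9 and 39.3 FPKM in Control. Each AOM/DSS sum exceeded both Control sums, and the 2 libraries of CUR lay farther apart than the other pairs. Areg held the largest share in 5 of the 8 AOM/DSS libraries and in both Control libraries, where it made up 38.4% and 29.6%. Ereg led in ASA replicate 0 with 31.6% and in ASA+CUR replicate 1 with 32.2%, against 5.84% and 4.92% in Control. Tgfa led in CUR replicate 1 with 34.1%. Egf made up 0.10% to 0.632% in the AOM/DSS libraries, against 4.0% and 7.64% in Control.

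**Figure D3:**
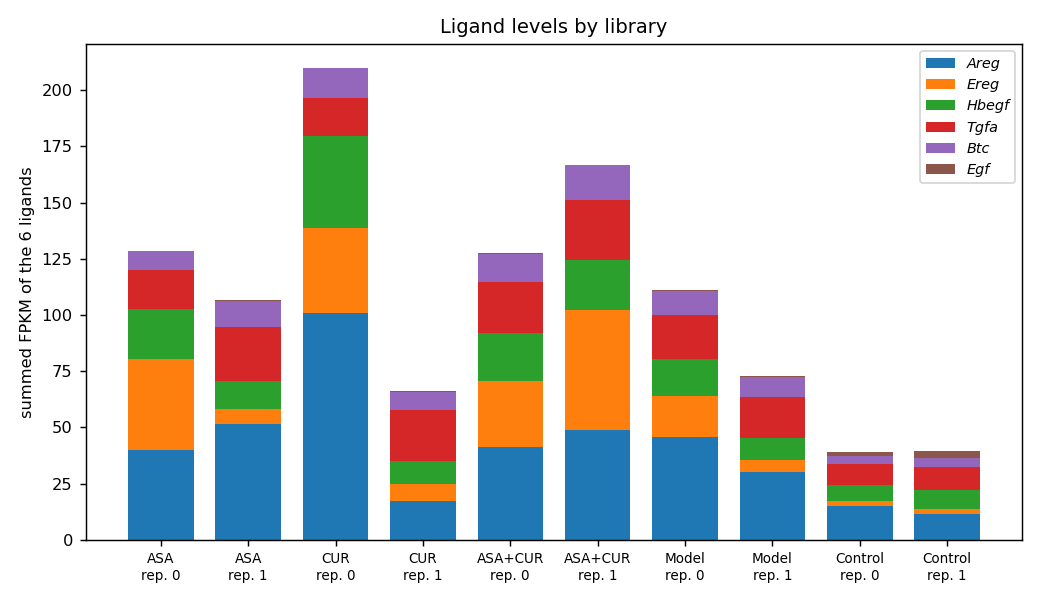
Summed FPKM of the 6 ligand genes (vertical axis, linear) in each library, with a segment for each gene. The AOM/DSS bars run between 66.1 and 210.0 FPKM and the Control bars stand at 38.9 and 39.3 FPKM, and the Egf segment is hardly visible outside Control.

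The diet groups were then set against Control on their own. In ASA 3 of 9 members passed, where 22.5% of all genes did (9.78% higher and 12.7% lower). In CUR it was 3 of 9, where 15% of all genes passed (6.67% higher and 8.34% lower), and in ASA+CUR 4 of 9, where 29.5% did (13.1% higher and 16.4% lower). Tgfa and Btc rose and Egf fell in each, with log2 changes of 1.03, 0.97 and 1.28 for Tgfa, 1.12, 1.20 and 1.58 for Btc and -1.42, -1.29 and -1.34 for Egf in ASA, CUR and ASA+CUR. Ereg rose in ASA+CUR (log2 change 3.71 ± 0.94, adjusted p = 0.0218). This call was lost without ASA+CUR replicate 0 (log2 change 4.14, adjusted p = 0.0558) or replicate 1 (3.29, 0.125), without Control replicate 0 (3.79, 0.0946) or replicate 1 (3.63, 0.101), and without the 3 libraries with Krt5 (4.14, 0.0547). Ereg had log2 differences of 2.55 ± 0.94 in ASA (adjusted p = 0.0893) and 2.54 ± 0.94 in CUR (adjusted p = 0.111). Areg had differences of 1.69 in ASA+CUR, 1.70 in ASA and 1.61 in CUR, each with an SE of 0.66, that did not pass (adjusted p = 0.0893, 0.103 and 0.144 in the same order). Hbegf had a difference of 1.36 ± 0.56 in ASA+CUR (adjusted p = 0.103). The count in ASA was 1 without Control replicate 0 or replicate 1, where 8.33% and 8.06% of all genes passed, and 0 without the libraries with Krt5 (10.2%). In CUR it was 7 without CUR replicate 1, where 21.8% of all genes passed, and 1 without CUR replicate 0 (12.4%) or Control replicate 0 (5.06%). It was 0 in CUR without Control replicate 1 (4.96%) or the libraries with Krt5 (9.76%). In ASA+CUR it was 2 without the libraries with Krt5, where 12% of all genes passed. With only the compared groups in the fit it was 0 in CUR, where 9.92% of all genes passed, and 7 in ASA+CUR, where 48.1% did.

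What the diets changed after AOM and DSS was asked against Model. Against Model no member passed in any diet group (limma), where 0.0142% of all genes passed for ASA, 0.00711% for CUR and 0.0142% for ASA+CUR. At an unadjusted p under 0.05 there was 1 member for CUR, where 4.86% of all genes reached that p, and 0 for ASA (2.38%) and ASA+CUR (10.1%). That member was Erbb2, at 36.5 and 44.4 FPKM in CUR and 27.9 and 25.6 FPKM in Model (log2 difference 0.57 ± 0.22, adjusted p = 0.934). Its groups did not overlap, and how many of all genes were apart between CUR and Model was not counted. The widest difference was that of Ereg in ASA+CUR, at 29.2 and 53.6 FPKM against 18.0 and 5.46 FPKM in Model (log2 difference 1.87, 95% interval -0.30 to 4.05). For Areg the intervals were -1.25 to 1.80 in ASA, -1.35 to 1.70 in CUR and -1.26 to 1.79 in ASA+CUR, so changes of more than 2-fold in either direction lie within them. They were narrower for Tgfa, at -0.36 to 0.57 in ASA, -0.42 to 0.51 in CUR and -0.11 to 0.82 in ASA+CUR.

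The combination was also set against each agent alone, which was fed at a higher dose than in the combination, so the diets differ in dose as well as in agents. No member passed in ASA+CUR against ASA or against CUR (limma), where 0% of all genes passed, and none had an unadjusted p under 0.05, which 2.84% of all genes had against ASA and 13.8% against CUR. Ereg had log2 differences of 1.17 in both, with 95% intervals of -1.01 to 3.34 against ASA and -1.0 to 3.34 against CUR. Btc had differences of 0.47 against ASA (-0.12 to 1.06) and 0.38 against CUR (-0.21 to 0.98). Without CUR replicate 1, 1 member passed against CUR, where 13.9% of all genes did.

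In the order of group means, Model stood next to Control for each of the 6 ligands. Control was the lowest group for Areg, Ereg, Hbegf, Tgfa, Btc and Egfr, and the highest for Egf, Erbb2 and Erbb3. Between AOM/DSS groups that stood next to each other in that order, libraries overlapped for every gene except Egf, whose ASA+CUR and ASA libraries were apart, with means that differed by less than the sum of their SDs. Control was apart from the group next to it for the 6 ligands and Egfr, by less than the sum of the SDs for Hbegf and Egfr. It overlapped with CUR for Erbb2 and Erbb3. How many of all genes had Control apart from the next group was not counted, so whether these members are unusual cannot be told.

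Areg, Ereg and Btc lie side by side on chromosome 5 (GRCm38.p6), Ereg at 91074617 to 91093649, Areg at 91139599 to 91148432 and Btc at 91357261 to 91402994, with the ligand gene Epgn before them and a run of chemokine genes before that. This stretch was chosen after its values were seen. It holds 12 coding genes in the RefSeq table from Cxcl5 to Btc over 643.7 kb, of which 10 were tested. All 10 were higher in the AOM/DSS groups (limma, adjusted p under 0.05), where 14.6% of all genes were. Cxcl5, Ppbp, Cxcl3, Cxcl1 and Cxcl2 were at no more than 0.316 FPKM in Control, so they passed the filter only through AOM/DSS libraries. Their direction was thus largely set by the filter, and the count of 10 is no test of the stretch. The Areg call was lost in several alternatives, as given above. The neutrophil chemokines Cxcl5, Cxcl1 and Cxcl2 had log2 changes of 5.46, 3.94 and 3.71, and Cxcl3 lay between 2.82 and 32.3 FPKM in the AOM/DSS libraries and was listed at 0 in both Control libraries. Mthfd2l, an enzyme gene of folate metabolism between the chemokines and the ligands, had the smallest, 0.55 ± 0.14 (adjusted p = 0.0190). In Model 5 of the 10 were higher, where 6.84% of all genes were, and Btc was the only EGF family gene among them. The others were Cxcl5, Cxcl3, Cxcl1 and Cxcl2, whose direction was largely set by the filter, so the Model count is no test either. Of the other members, Tgfa lies on chromosome 6 at 86195038 to 86275744, Egf on chromosome 3 at 129677574 to 129755322, Erbb3 on chromosome 10 at 128567523 to 128589635 and Hbegf on chromosome 18 at 36504927 to 36515805. Egfr and Erbb2 lie far apart on chromosome 11, at 16752203 to 16913907 and 98412484 to 98437716.

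**Figure D4:**
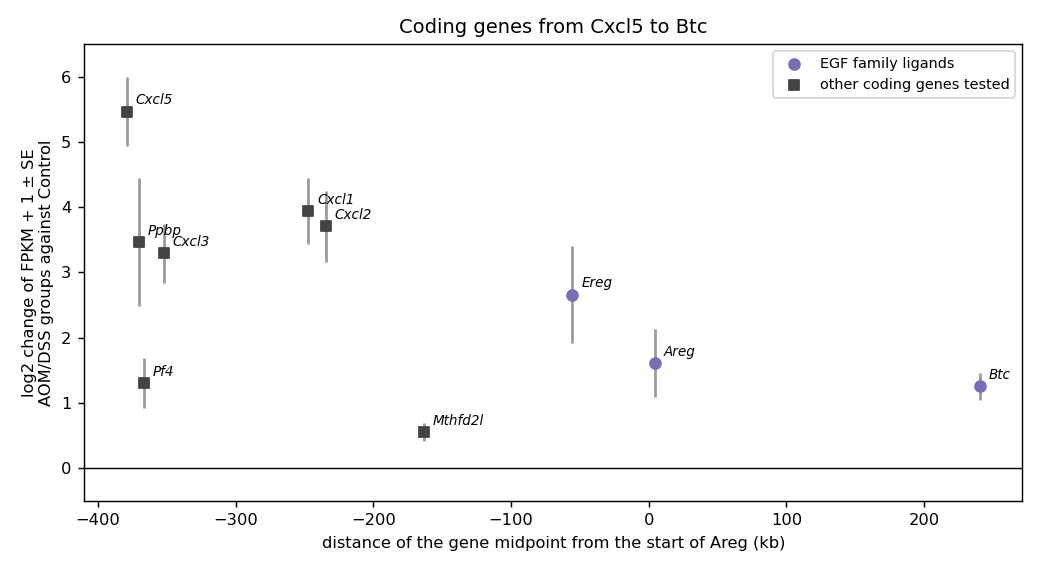
Log2 change of FPKM + 1 ± SE in the AOM/DSS groups against Control (vertical axis) for the 10 tested coding genes from Cxcl5 to Btc on chromosome 5, by the distance in kb of each gene's midpoint from the start of Areg. All 10 points lie above 0, from 0.55 for Mthfd2l to 5.46 for Cxcl5.

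Around the 9 genes, lists of the pathway were examined. Of 6 other EGF family genes, 2 were tested. Nrg1, the neuregulin ligand of ERBB3, had 11.2 and 8.74 FPKM in ASA, 13.8 and 6.49 FPKM in CUR, 10.9 and 16.9 FPKM in ASA+CUR, 5.87 and 3.36 FPKM in Model, and 1.56 and 0.697 FPKM in Control. It rose by a log2 change of 2.23 ± 0.31 in the AOM/DSS groups (adjusted p = 0.00167) and of 1.39 ± 0.40 in Model (adjusted p = 0.0498). Erbb4, the other neuregulin receptor, was listed at 0 in 7 libraries and at no more than 0.0442 FPKM in the others.

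Of 14 genes that shed or transport ligands, 5 rose and 2 fell in the AOM/DSS groups (median log2 change 0.25, against 0.02 over all genes). Of all genes, 14.6% rose and 16.9% fell. Adam10, the sheddase of EGF and betacellulin, lay between 56.1 and 88.6 FPKM in the AOM/DSS libraries and at 38.0 and 38.2 FPKM in Control (log2 change 0.92 ± 0.15, adjusted p = 0.00353). Rhbdf2, an iRhom needed for the maturation of ADAM17, and Adam12 also rose (log2 changes 0.68 and 2.14), and Adam15 and Tmem115 fell (-0.96 and -0.44). Adam12 was at 0.184 and 0.125 FPKM in Control and passed the filter only through AOM/DSS libraries. Its direction was thus largely set by the filter, and its place among the 5 that rose is no test. Adam17, the sheddase of amphiregulin, epiregulin and TGF alpha, was named after its values were seen. It lay between 14.6 and 23.5 FPKM in the AOM/DSS libraries and at 13.1 and 13.5 FPKM in Control (log2 change 0.44 ± 0.13, adjusted p = 0.0330).

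Of 16 genes that restrain the receptors, 3 rose and 2 fell (median 0.07), a share close to the 31.5% of all genes that passed. Lrig1, a membrane protein that lowers EGF receptor levels and marks crypt stem cells, lay between 14.6 and 30.9 FPKM in the AOM/DSS libraries and at 47.0 and 46.9 FPKM in Control (log2 change -1.11 ± 0.13, adjusted p = 0.000725). Its relative Lrig3 fell as well (-1.70 ± 0.34, adjusted p = 0.00755). Socs3, a feedback inhibitor best known in cytokine signalling, Ptpn1, a tyrosine phosphatase, and Sh3kbp1, a scaffold of receptor uptake, rose (log2 changes 2.71, 0.65 and 1.63). The 5 were called in Model too, where 16.2% of all genes passed.

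Of 24 adaptor and RAS-MAPK genes, 4 rose and 2 fell (median 0.02), a share below the 31.5% of all genes that passed. Nras, a RAS gene, and Plcg1, a phospholipase bound by EGFR, rose by log2 changes of 0.79 and 1.26, and Map2k1, the kinase upstream of ERK, fell (-0.69 ± 0.12, adjusted p = 0.00501). Ksr1, a scaffold of that cascade, rose by 0.56, and Pik3r1, the regulatory subunit of PI3K, fell by 0.58 on the log2 scale.

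Of 21 genes that ERK signalling induces or that restrain it, 9 rose and 1 fell in the AOM/DSS groups, and 6 rose and 1 fell in Model (medians 0.64 and 0.66, against 0.02 over all genes in each). Of all genes, 14.6% rose and 16.9% fell in the AOM/DSS groups, and 6.84% rose and 9.34% fell in Model. Dusp4, a phosphatase of MAP kinases, lay between 11.6 and 45.4 FPKM in the AOM/DSS libraries and at 2.09 and 2.36 FPKM in Control (log2 change 3.11 ± 0.37, adjusted p = 0.000755). Phlda1 rose by 2.91, Myc, a growth-promoting transcription factor, by 1.42, and Ccnd1, cyclin D1, by 1.22 on the log2 scale. Etv1, an ETS factor, fell by 1.44. Several of these genes answer to Wnt or inflammatory signals as well, and the lists were written with earlier results of these data known.

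**Figure D5:**
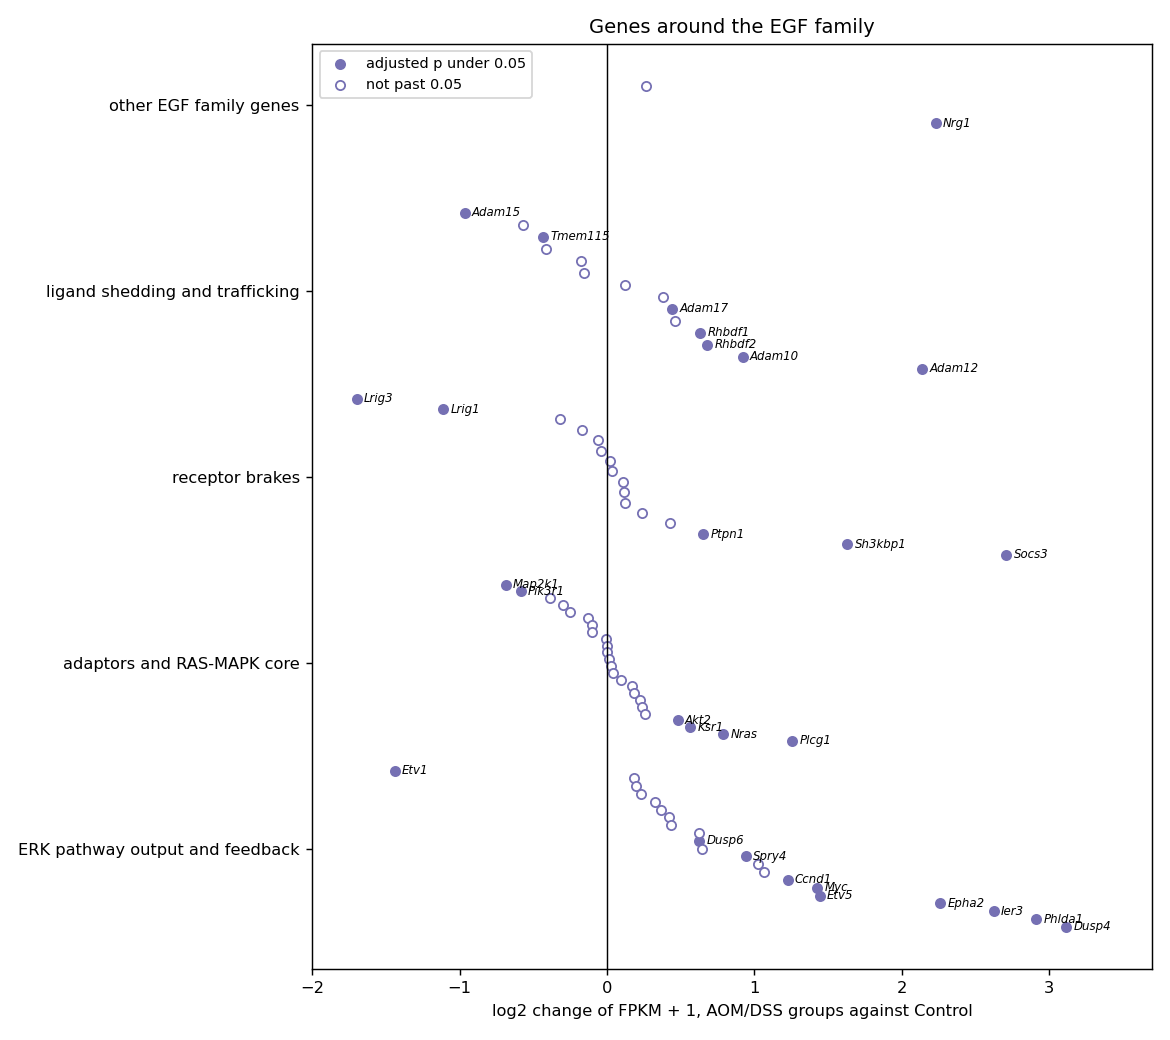
Log2 change of FPKM + 1 in the AOM/DSS groups against Control (horizontal axis) for each tested gene of 5 pathway lists, 1 point per gene, filled and named where the adjusted p was under 0.05. Filled points lie on both sides of 0 in the shedding, brake and adaptor lists, and Etv1 is the single filled point below 0 among the ERK output genes.

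The genes whose profiles over the 10 libraries lay nearest to each member, by the root mean square difference of centred log2(FPKM + 1) values, were as follows. For Areg they were Ripk3 (0.303), Bok and Plek2, and for Hbegf Plek2 (0.228), S100a16 and Pde9a. For Ereg they were Sprr1a (0.449), a gene of the cornified envelope, Plaur, the urokinase receptor, and Sprr2h. Tgfa was nearest to Afap1l1 (0.0987), Iffo2 and Ets2, Btc to B4galt6 (0.145), Arid3a and Plcd3, and Egf to Prlr (0.108), Pnmal1 and Echs1. Among the receptors, Egfr was nearest to Pgap1 (0.142), Txnrd1 and Las1l, and Erbb3 to Pik3c2b (0.114), Plce1 and Usf3. Erbb2 was nearest to Pgap3 (0.105), a coding gene 11.3 kb away from it on chromosome 11, then to Usp28 and Elf4.

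Markers of other cells moved with the AOM/DSS groups, where 14.6% of all genes rose and 16.9% fell. Some markers, such as S100a8 and Arg1, were under 1 FPKM in both Control libraries and passed the filter only through AOM/DSS libraries. Squamous markers, 6 of 12 tested of which rose, summed to 430.0 and 127 FPKM in ASA, 206 and 92.5 FPKM in CUR, 908 and 265 FPKM in ASA+CUR, 228 and 29.3 FPKM in Model, and 10.1 and 9.35 FPKM in Control. Ereg was above 29 FPKM in ASA replicate 0, CUR replicate 0 and both ASA+CUR libraries. Krt14 stood at 117, 59.3, 198 and 95.2 FPKM in these 4 libraries, and at 57.3 FPKM in ASA replicate 1, where Ereg was low. Sprr1a stood at 43.2, 97.1, 54.7 and 123 FPKM in the 4, but it is also the gene nearest to Ereg by profile, so that match is built in. Krt4 did not follow Ereg, at 19.2, 2.24, 85.1 and 3.82 FPKM in the 4, against 15.6 FPKM in CUR replicate 1 and 16.7 FPKM in Model replicate 0. Krt13 was at 7.27 FPKM in CUR replicate 0 and at 8.14 FPKM in CUR replicate 1. Krt5 was at 94.5 and 212 FPKM in 2 of the 4 and at 0.0739 and 0.0662 FPKM in CUR replicate 0 and ASA+CUR replicate 1. Macrophage and dendritic cell markers (7 of 9 tested rose) summed to 400 to 1281 FPKM in the AOM/DSS libraries and 159 to 194 FPKM in Control, neutrophil markers (4 of 5 rose) to 65.7 to 530 FPKM in the AOM/DSS libraries and 1.39 to 3.86 FPKM in Control. T cell and innate lymphoid markers (5 of 9 rose) summed to 68.9 to 203 FPKM in the AOM/DSS libraries and 6.09 to 10.2 FPKM in Control. No marker was at 0 in every library. Mast cell markers (2 of 9 rose, 1 fell) summed to 29.9 to 287 FPKM in the AOM/DSS libraries and to 207 and 28.6 FPKM in Control.

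Fibroblast and matrix markers (5 of 9 rose, 2 fell) summed to 593 to 1242 FPKM in the AOM/DSS libraries and 533 to 618 FPKM in Control, and Paneth and deep secretory markers (4 of 5 rose) to 1716 to 5952 FPKM in the AOM/DSS libraries and 260.1 to 2503 FPKM in Control. Absorptive colonocyte (6 of 7), goblet (7 of 7), smooth muscle (10 of 10) and enteric neuron and glia markers (9 of 10) fell, where 16.9% of all genes did. Smooth muscle markers summed to 298 to 904 FPKM in the AOM/DSS libraries and 5641 to 9283 FPKM in Control. Of 10 colon epithelium markers 1 fell and none rose. The part of these shifts in the results for the 9 genes was not tested.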

How the data were processed

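RNA-seq of 10 mouse colon libraries was deposited by the authors as FPKM values per RefSeq transcript, 1 column per library. Tools listed, per the submitters' processing notes, were TopHat2 2.0.9, Bowtie2 2.1.0.0, Cuffdiff and bcl2fastq 2.17.1.14, and the builds mm10 and GRCm38, with no role or order. Strand and the treatment of multi-mapping fragments are not given in the sources used here. FPKM remove depth, so no counting interval was used, and a listed 0 can be a failed estimate.

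Of 30073 transcripts, 29443 were named from RefSeq (GRCm38.p6) and 179 from GENCODE, and 451 kept their identifiers. FPKM were summed per gene. The genes tested, which reached 1 FPKM in 2 or more libraries, were fitted on log2(FPKM + 1) with limma 3.58.1 (R 4.3.3), with an intensity trend and all 10 libraries in 1 fit (5 residual and 2.96 prior degrees of freedom), over 10 comparisons. P-values are two-sided and Benjamini-Hochberg adjusted over the 14061 genes of a comparison, with a threshold of 0.05. The fit was tested on simulated data. The rule for named genes was to give each member, the 3 genes nearest to it, and up to 5 genes past the threshold per pathway list by smallest p. Members and lists were chosen with earlier results of these data known. Muc2, Cd68 and Ly6g of the marker lists were not matched.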

Additional observations from a re-analysis of the deposited data

How the results depend on the processing

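Of 35 results for single genes, none changed direction in 514 alternative values, 437 stayed on their side of the threshold, 57 no longer passed and 20 newly passed. Leaving out the filter or the variance trend, adding a block or fitting only the compared groups cannot alter a log2 change. No reversal was possible in those fits. Outside Model and the AOM/DSS groups against Control, the 35 hold only results with an unadjusted p under 0.05 (limma). The pseudocount of 0.1, the upper quartile scaling, the fit without a filter, without a variance trend or with the highest transcript moved no count of members by over 1.5 times. Scaling to a sum of 1000000 shifted the median of all genes by 0.25 in Model and 0.27 in the AOM/DSS groups against Control, and 5 members passed in ASA against Control in place of 3, with 24.9% of all genes in place of 22.5%. With only the compared groups in the fit, 7 members passed in ASA+CUR against Control in place of 4 (48.1% of all genes in place of 29.5%) and 0 in CUR in place of 3 (9.92% in place of 15%). That fit could not differ for the AOM/DSS groups against Control, which use all libraries.

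With 1 library left out, where a lone library is assumed to vary like the other groups, the number of members past the threshold ran between 0 and 1 in Model, 1 and 3 in ASA, 0 and 7 in CUR and 3 and 7 in the AOM/DSS groups, each against Control, and between 0 and 1 in ASA+CUR against CUR. It was 3 in each such fit of ASA+CUR against Control and 0 in the other comparisons. Without the 3 libraries with Krt5, an alternative chosen after seeing the data, it was 0 in Model, 0 in ASA, 0 in CUR, 2 in ASA+CUR and 3 in the AOM/DSS groups, each against Control, where 6.15%, 10.2%, 9.76%, 12% and 21.8% of all genes passed. That fit has fewer libraries; no other cause was tested. Over these alternatives the number of all genes past the threshold ran between 553 and 2852 in Model (2276 as reported), 1133 and 3701 in ASA (3163), 698 and 3060 in CUR (2110), 1481 and 6758 in ASA+CUR (4148) and 1567 and 5417 in the AOM/DSS groups (4435), each against Control. In ASA+CUR against CUR it ran between 0 and 1956 (0 as reported).

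The labels do not say what the replicate numbers share. Differences between replicates 0 and 1 correlated across genes at -0.214 to 0.326 between pairs of groups, so the numbers were not taken as pairs. With the replicate number as a block, 3 members passed in Model, 3 in ASA, 3 in CUR, 4 in ASA+CUR and 5 in the AOM/DSS groups against Control. Of all genes, 14.7%, 21.5%, 13.9%, 28.1% and 30.3% passed in the same order. The counts of members were the same as without the block. With crossed numbers and only the compared groups, added after seeing the data, 7 members passed in Model, where 20.3% of all genes did, and 5 in ASA, where 23.7% did.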

Other observations

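Among the markers of T cells and innate lymphoid cells, most of the summed FPKM in each AOM/DSS library except Model replicate 1 came from Il1rl1, which encodes the IL-33 receptor. It had 99.3 and 79.3 FPKM in ASA, 168 and 68.2 FPKM in CUR, 88.2 and 192 FPKM in ASA+CUR, 61.5 and 23.3 FPKM in Model, and 3.66 and 1.56 FPKM in Control. Il13 and Il5, cytokines of type 2 lymphoid cells, were at no more than 0.145 FPKM in any AOM/DSS library, and at 0.553 and 0.120 FPKM at most in Control. Il1rl1 was chosen after its values were seen.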
